A study of Mus musculus with 10 samples.

Results

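The T cell receptor gene segments are the variable (V), diversity (D), joining (J) and constant (C) pieces from which receptor chains are built. Members were all genes of the GENCODE M21 annotation of the mouse genome (GRCm38) whose symbol is Tra, Trb, Trg or Trd followed by v, d, j or c, with a number where the symbol has one. Of 258 such symbols 245 had a transcript in the deposited tables, among 54337 genes in all, and 13 were not analysed here. The members were 157 V, 80 J, 4 D and 4 C segments. In a developing T cell the RAG recombinase joins V, D and J pieces of the beta and delta chains, and V and J pieces of the alpha and gamma chains, and the joined V region is spliced to a C segment. Each alpha beta T cell clone therefore makes RNA from its own V segments and from few others, while a T cell receptor transgene fixes that choice for most cells. The beta locus carries a pair of C segments, Trbc1 and Trbc2, each behind its own cluster of J segments, and the delta locus lies inside the alpha locus.

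The libraries came from CD8 T cells with a transgenic receptor for P1A, an antigen of the mouse mastocytoma line P511, and all groups shared that receptor. The cells were activated for 24 h, transduced with a retrovirus and transferred into Rag1-/- B10D2 mice bearing P511 tumours, hosts that cannot rearrange receptor genes of their own, and were sorted from the tumours on day 7. The vectors encoded NFAT5, a transcription factor of the osmotic stress response (3 libraries, numbered 1, 5 and 8), CA-RIT NFAT1, an always active NFAT1 that does not cooperate with AP-1 (4 libraries, 2, 4, 9 and 10), or eGFP alone as the control (3 libraries, 3, 6 and 7). The labels name the strain C57BL/6 and give no age, promoter or number of mice. Separate animals are not named, so each p-value covers only the variation among these libraries, which may be technical.

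A pair of libraries stood apart and were kept out of the tests. eGFP 7 held 0.0511 M estimated reads (M being 1e6) and 798 genes with reads. CA-RIT NFAT1 10 held 32.5 M reads, but its summed level of 5 CD8 T cell markers (Cd8a, Cd8b1, Cd3e, Cd3d and Cd3g) was 143 CPM (reads scaled to a library total of 1e6 on annotated genes), against 3672 to 5716 CPM in the other 8 libraries. Those 8 held 18.8 to 36.6 M reads and 13186 to 17255 genes with reads, eGFP 3 being the deepest and the one with fewest genes. Nfat5, the gene of the NFAT5 vector, was at 48.0 to 87.0 CPM in NFAT5 libraries, 3.01 to 10.7 CPM in CA-RIT NFAT1 2, 4 and 9 and 1.12 and 6.88 CPM in eGFP 3 and 6. Nfatc2, which encodes NFAT1, was at 36.6 to 70.0 CPM in NFAT5 libraries, 30.0 to 88.8 CPM in these CA-RIT NFAT1 libraries and 4.00 and 47.3 CPM in eGFP 3 and 6, so that its groups overlapped and it does not check the CA-RIT NFAT1 label, and it was at 3.39 CPM in CA-RIT NFAT1 10. In the 8 libraries, markers of other lymphocytes lay below the CD8 T cell list, with Sox13 (gamma delta T cells) and Rag2 at 0 reads. The summed level was 0 to 2.18 CPM for 6 gamma delta T cell markers and 5.27 to 33.0 CPM for 5 CD4 and regulatory T cell markers. For 5 NK cell markers it was 13.0 to 102 CPM, nearly all from Fcer1g (12.4 to 102 CPM). Ncr1, Klrb1c, Klra8 and Klra4 were at most 3.87 CPM in any of the 8 libraries. For 5 B cell markers the sum was 54.8 to 275 CPM, led by Ighm. The sum was 64.2 to 192 CPM for 7 macrophage markers and 39.4 to 247 CPM for 7 mast cell and P511 markers, with Fcer1a at 0. Their part in the receptor values was not tested.

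Receptor RNA in the 8 libraries came almost wholly from 2 V segments, Trav12-3 for the alpha chain and Trbv5 for the beta chain. Trbv5 was known as Vbeta1 in the older nomenclature. The sequences shown are the last 280 coding bases of these segments, of a pair of Trav12 relatives that a read could be mistaken for, and of the segment that led the alpha V reads of CA-RIT NFAT1 10. They are GENCODE M21 transcripts on GRCm38, all on the plus strand, 5′ to 3′. Capitals in Trav12-2 and Trav12n-3 mark each base that differs from Trav12-3 or has no counterpart in it, 17 and 9 in these stretches, and bases that Trav12-3 alone has are not marked. The Trav12-3 stretch lies at chr14:53621966-53622245, that of Trav12-2 at chr14:53616635-53616914, that of Trav12n-3 at chr14:53240965-53241244, that of Trbv5 at chr6:41062524-41062803 and that of Trav14d-3-dv8 at chr14:53078766-53079045, all in the V exon.
Trav12-3: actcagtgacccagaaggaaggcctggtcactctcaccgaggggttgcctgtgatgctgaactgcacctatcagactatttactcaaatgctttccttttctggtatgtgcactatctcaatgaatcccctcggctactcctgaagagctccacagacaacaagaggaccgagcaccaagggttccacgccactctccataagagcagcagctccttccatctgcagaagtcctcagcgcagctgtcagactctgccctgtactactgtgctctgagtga
Trav12-2: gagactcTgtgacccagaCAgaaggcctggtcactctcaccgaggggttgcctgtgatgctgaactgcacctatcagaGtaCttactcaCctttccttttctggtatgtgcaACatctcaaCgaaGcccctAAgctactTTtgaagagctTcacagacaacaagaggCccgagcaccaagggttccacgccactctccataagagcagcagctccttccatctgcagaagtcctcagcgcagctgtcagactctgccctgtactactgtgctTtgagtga
Trav12n-3: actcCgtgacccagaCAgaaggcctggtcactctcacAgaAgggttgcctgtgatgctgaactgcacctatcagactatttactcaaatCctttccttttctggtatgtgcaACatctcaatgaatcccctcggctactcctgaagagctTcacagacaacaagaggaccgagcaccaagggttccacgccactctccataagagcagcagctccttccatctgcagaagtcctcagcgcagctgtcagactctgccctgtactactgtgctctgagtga
Trbv5: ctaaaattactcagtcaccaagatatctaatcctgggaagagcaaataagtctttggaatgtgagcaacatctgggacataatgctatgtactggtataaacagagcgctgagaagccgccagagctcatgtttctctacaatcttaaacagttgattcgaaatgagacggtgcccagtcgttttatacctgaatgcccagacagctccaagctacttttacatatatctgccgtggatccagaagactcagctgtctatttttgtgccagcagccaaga
Trav14d-3-dv8: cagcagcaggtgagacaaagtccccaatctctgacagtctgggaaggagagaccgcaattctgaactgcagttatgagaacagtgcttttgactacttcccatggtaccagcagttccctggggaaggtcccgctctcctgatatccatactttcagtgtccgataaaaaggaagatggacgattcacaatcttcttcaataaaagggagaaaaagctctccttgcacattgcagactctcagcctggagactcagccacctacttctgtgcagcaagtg

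Of the 245 segments 49 had a read in any library and 196 were at 0 in every library. Within the 8 libraries 15 segments had reads in each and 18 in 1 library only. Reads fell on all 4 C segments and on 45 V segments. None of the 84 J and D segments had a read in any library. These are the shortest members, with J segments of 29 to 72 bases and D segments of 11 to 16 bases, while V segments were 155 to 595 bases long. Whether length sets these zeros was not tested, and the J segments of the transgenic receptor are not read from these tables.

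Together the segments took 3.13%, 3.09% and 2.94% of all reads in NFAT5 1, 5 and 8. They took 3.83%, 3.26% and 3.24% in CA-RIT NFAT1 2, 4 and 9, and 4.77% and 3.73% in eGFP 3 and 6. The NFAT5 libraries lay below all others, and CA-RIT NFAT1 2 lay above eGFP 6. In bulk RNA fewer cells of a type and less RNA per cell cannot be told apart. Trbc2 took more reads than any other gene in each of the 8 libraries.

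Per length, on the TPM scale, the order of levels over the 8 libraries was Trbv5 with a mean of 36833 TPM (27323 to 44304), Trbc2 with 34547 (27072 to 41406), Trac with 16494 (11557 to 24085) and Trav12-3 with 9397 (6660 to 13433). Trbv5 and Trbc2 had overlapping ranges, and their ratio within a library ran from 1.01 to 1.12. The ratio of Trav12-3 to Trac within a library was 0.527 to 0.626. A wide step followed to Trbc1, with a mean of 662 TPM (568 to 832), and to Trav12-2, with 143 TPM (99.5 to 203). Trdv2-2, a delta V segment, had a mean of 42.4 TPM, Trav12d-3 27.3 TPM, Trbv13-1 21.5 TPM, Trav12n-3 21.2 TPM and Trdc, the delta constant gene, 19.8 TPM. The ranges of these last 5 overlapped.

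The first question was whether the vectors changed the level of the receptor genes. Trbc2 (ENSMUSG00000076498, chr6:41546730-41548352), the beta constant gene with most reads, was at 17206, 16161 and 15593 CPM in NFAT5 1, 5 and 8. It was at 19307, 17721 and 18848 CPM in CA-RIT NFAT1 2, 4 and 9, and at 25613 and 22364 CPM in eGFP 3 and 6. The 3 groups did not overlap, with NFAT5 lowest and eGFP highest. Trbv5 (ENSMUSG00000076465, chromosome 6) was at 6266, 5773 and 5435 CPM in NFAT5 libraries, 7118, 6417 and 7097 CPM in CA-RIT NFAT1 libraries and 9655 and 8159 CPM in eGFP libraries. It too had 3 groups without overlap, in the same order.

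The log2 fold change of Trbv5 in NFAT5 against eGFP was -0.73 ± 0.19 (SE) and that of Trbc2 was -0.67 ± 0.19. Neither passed the threshold of an adjusted p of 0.05, with adjusted p = 0.654 for Trbv5 in edgeR's quasi-likelihood test (unadjusted p = 0.00523 for Trbv5 and 0.00752 for Trbc2). In CA-RIT NFAT1 against eGFP the values were -0.50 ± 0.19 for Trbv5 and -0.49 ± 0.19 for Trbc2 (unadjusted p = 0.0311 and 0.0313, adjusted p = 0.679 for Trbv5, edgeR). In NFAT5 against CA-RIT NFAT1 they were -0.22 ± 0.18 and -0.17 ± 0.17. The first pair of comparisons shares the eGFP libraries.

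Trbc1 (chr6:41538218-41539881), the other beta constant gene, was at 317, 309 and 307 CPM in NFAT5 libraries, 411, 282 and 332 CPM in CA-RIT NFAT1 libraries and 447 and 354 CPM in eGFP libraries. NFAT5 lay below eGFP without overlap (log2 fold change -0.48 ± 0.22), while CA-RIT NFAT1 overlapped both groups (-0.37 ± 0.22 against eGFP). Without eGFP 3 these values were -0.21 and -0.10. Trbc1 and Trbc2 are near copies, with 23 substitutions over 518 coding bases (95.6% identity), so the split of reads between them is uncertain.

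The alpha chain varied widely within the CA-RIT NFAT1 and eGFP groups. Trac (ENSMUSG00000076928, chr14:54220521-54224206), the alpha constant gene, was at 5073, 5933 and 5501 CPM in NFAT5 1, 5 and 8. It was at 7841, 5638 and 4114 CPM in CA-RIT NFAT1 2, 4 and 9, and at 7898 and 4479 CPM in eGFP 3 and 6. All 3 groups overlapped, with CA-RIT NFAT1 2 and eGFP 3 high and CA-RIT NFAT1 9 and eGFP 6 low. The log2 fold change was -0.29 ± 0.34 in NFAT5 and -0.23 ± 0.34 in CA-RIT NFAT1, each against eGFP.

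Trav12-3 (ENSMUSG00000095958) had the same high and low libraries. It was at 2283, 2543 and 2425 CPM in NFAT5 libraries, 3484, 2430 and 1896 CPM in CA-RIT NFAT1 libraries and 3934 and 1775 CPM in eGFP libraries. Its log2 fold change was -0.37 ± 0.38 in NFAT5 and -0.29 ± 0.38 in CA-RIT NFAT1, each against eGFP. Without eGFP 3 these values were 0.42 and 0.50, and those of Trac were 0.27 and 0.34, so the direction of the alpha chain depended on that library.

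**Figure D1:**
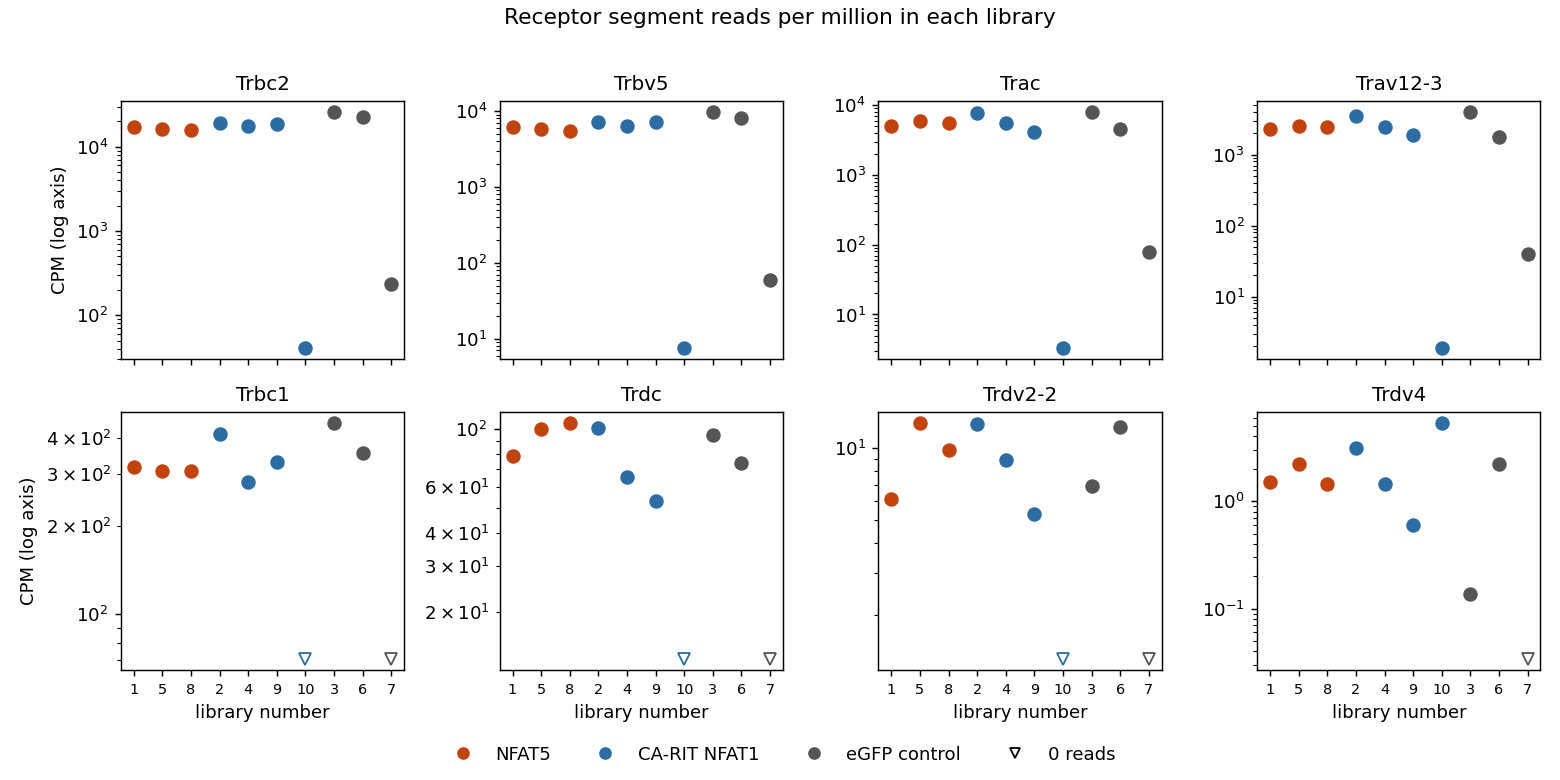
CPM (log axis) of 8 receptor segments in each of the 10 libraries, ordered NFAT5, CA-RIT NFAT1 and eGFP control, with open triangles for 0 reads. Trbc2 and Trbv5 step up from NFAT5 to eGFP in the 8 tested libraries, and Trac and Trav12-3 overlap between groups. CA-RIT NFAT1 10 lies far below except for Trdv4, at 5.29 CPM. eGFP 7 lies far below for Trbc2, Trbv5, Trac and Trav12-3. Its 0 reads on Trdc, Trdv2-2 and Trdv4 cannot place it, since 3 counts equal 58.7 CPM there.

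Across all members the fit gave no call. Of the 245 segments 16 passed the low-count filter and 229 did not, and those 16 are not a sample of all members, since a segment could pass through the group where it was high. None of the 16 passed an adjusted p of 0.05 in edgeR in any of the 3 comparisons, beside 0.00% of the 14473 genes tested. At an unadjusted p below 0.05 (edgeR), 2 of 16 were lower and 0 higher in NFAT5 against eGFP. Beside them, 7.26% of all genes passed in either direction and 4.01% lower. These members were Trbv5 and Trbc2, the leading V and C segments of the beta chain. Their TPM ratio within a library was 1.01 to 1.12, so they do not count as separate results. In NFAT5 against eGFP the lower count was 2 of 15 to 17 without any 1 of the NFAT5 or CA-RIT NFAT1 libraries. Beside it, 233 to 477 of 14086 to 14464 genes were lower. With all 10 libraries it was 0 of 14, beside 135 of 13783 genes. Fits without eGFP 3 or eGFP 6 keep 1 control library and are given below. In CA-RIT NFAT1 against eGFP the same 2 of 16 were lower, beside 6.44% of all genes and 3.16% lower. That count was 0 of 15 to 17 without any 1 of NFAT5 5, NFAT5 8 and CA-RIT NFAT1 2, 4 or 9. Beside it, 144 to 337 of 14086 to 14464 genes were lower. It was 1 of 16 without NFAT5 1, beside 328 of 14350 genes. It was also 0 of 14 with all 10 libraries, beside 136 of 13783 genes, and 0 of 49 with no low-count filter, beside 530 of 21786. With only the compared groups in the fit it was 0 of 15, beside 158 of 13819. In NFAT5 against CA-RIT NFAT1 0 of 16 were, beside 1.13% of all genes. DESeq2 called 131, 100 and 4 genes in these comparisons (0.877%, 0.651% and 0.0184% of those it gave an adjusted p) and no member. In limma voom 0 genes were called.

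Groups without overlap and lower in CPM were found for 4 of 16 members in NFAT5 against eGFP (Trbv5, Trbc1, Trbc2 and Trav12n-1), beside 8.15% of all genes (22.4% in either direction). There were 3 in CA-RIT NFAT1 against eGFP, beside 6.67% (20.9% in either direction). There were 3 in NFAT5 against CA-RIT NFAT1, beside 4.06% (6.85% in either direction). In each case these were Trbv5, Trbc2 and Trav12n-1. Trbv5 and Trbc2 belong to the same chain and again do not count as separate results. Trav12n-1 passed the low-count filter only through the eGFP libraries. Its place in both counts against eGFP was therefore fixed by the filter and is no result. The median log2 fold change of the 16 was -0.29, -0.26 and -0.07 in these comparisons, beside 0.08, 0.10 and -0.00 for all genes. The 9 members not given singly here ran from -2.55 to 0.74 in NFAT5 against eGFP, from -1.71 to 0.46 in CA-RIT NFAT1 against eGFP and from -0.84 to 0.64 in NFAT5 against CA-RIT NFAT1. The low ends against eGFP, -2.55 and -1.71, were those of Trav12n-1 and follow from the filter in the same way.

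These calls depended on the choice of control library. Without eGFP 6, which leaves eGFP 3 alone and assumes that it varies like the other groups, edgeR called 3294 genes in NFAT5 against eGFP and 3410 in CA-RIT NFAT1 against eGFP. Trbv5 and Trbc2 were then called lower in both, beside 5.14% and 5.37% of genes called lower, while the median over all genes was 0.45 and 0.49 on the log2 scale. Trbv5 was at -0.90 (adjusted p = 0.0074) in NFAT5 and -0.67 (adjusted p = 0.0249) in CA-RIT NFAT1, and Trbc2 at -0.82 (adjusted p = 0.00678) and -0.64 (adjusted p = 0.0191), all from edgeR. Without eGFP 3 no gene was called, and the log2 fold changes were smaller. Trbv5 was then at -0.51 in NFAT5 and -0.29 in CA-RIT NFAT1 (edgeR, unadjusted p = 0.0148 and 0.126), and Trbc2 at -0.48 and -0.31 (edgeR, unadjusted p = 0.011 and 0.0734), each against eGFP 6 alone.

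**Figure D2:**
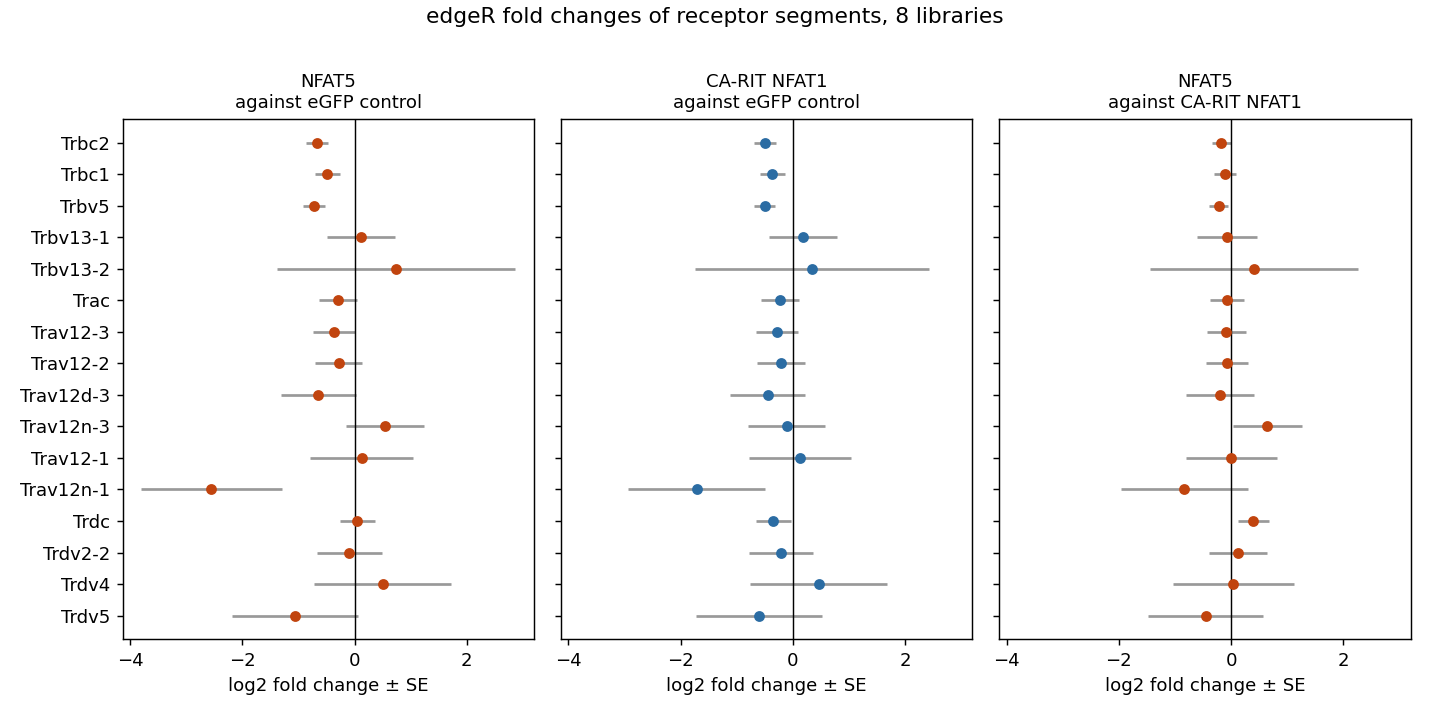
Log2 fold changes with standard errors (edgeR, 8 libraries) of the 16 segments that passed the low-count filter, with a panel for each pair of groups, NFAT5 with eGFP leftmost. Trbc2 and Trbv5 lie left of 0 in each panel, at -0.67 and -0.73 in the first, while segments with few reads have wide bars.

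The second question was which receptor the cells carried. Of reads on alpha V segments, Trav12-3 held 98.3%, 98.2% and 98.1% in NFAT5 1, 5 and 8. It held 98.3%, 98.2% and 98.3% in CA-RIT NFAT1 2, 4 and 9, and 98.4% and 98.1% in eGFP 3 and 6. The group means were 98.2% ± 0.12 (SD, n = 3), 98.3% ± 0.089 (n = 3) and 98.3% ± 0.21 (n = 2), and an exact two-sided permutation test over the 3 groups gave p = 0.782 (adjusted p = 0.921 over 7 shares; the smallest p of its 560 labellings is 0.00357). Trbv5 held 99.93% ± 0.0056 of beta V reads in NFAT5, 99.93% ± 0.019 in CA-RIT NFAT1 and 99.96% ± 0.021 in eGFP libraries (exact permutation p = 0.132, adjusted p = 0.40).

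The alpha V reads that were not on Trav12-3 were mostly on its nearest relatives. Trav12-2 had 580 to 1849 reads in each of the 8 libraries, which is 12.8 to 14.8 for every 1000 reads of Trav12-3. Its coding part is 89.8% identical to that of Trav12-3, and 109 stretches of 31 bases occur in both transcripts. Trav12d-3 and Trav12n-3, whose coding parts are identical to each other, differ from Trav12-3 by 11 substitutions over 347 bases (96.8% identity) and had 1013 and 742 reads over the 8 libraries. Trav12-1 (89.2%) had 295 reads, Trav12n-1 (89.0%) 85.1 and Trav12n-2 (92.2%) 11.8, while Trav12d-1 (89.8%) and Trav12-4 had 0.

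Reads on other alpha V segments fell mostly on those most like Trav12-3. The 8 alpha V segments that share a stretch of 31 bases with Trav12-3 held 9885 reads over the 8 libraries, on 6 of them. The 106 that share none held 131 reads, on 24 of them, with at most 26 on any, Trav13n-2. Because near copies can take each other's reads, the counts of the Trav12 relatives are uncertain, and how many of them are RNA of those segments was not tested. The capitals in the printed sequences show how few bases can separate such reads.

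**Figure D3:**
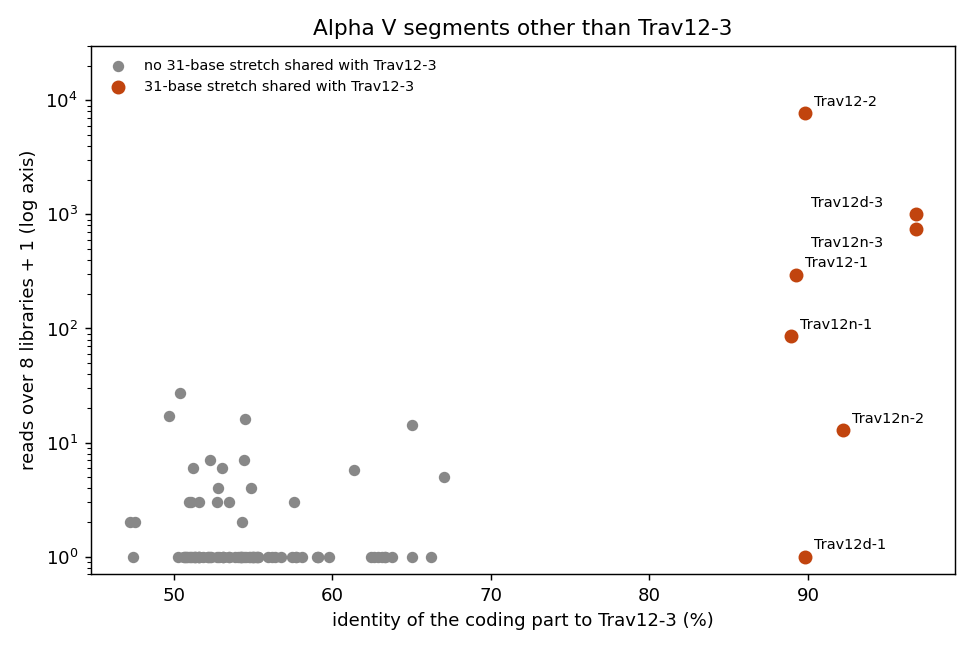
Each point is an alpha V segment with a coding part, other than Trav12-3, placed by the identity of its coding part to that of Trav12-3 (%) and by its reads summed over the 8 libraries plus 1 (log axis). The segments that share a stretch of 31 bases with Trav12-3 lie at 89.0% identity and above and include every segment with more than 26 reads.

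Trav12n-1 passed the low-count filter only through the eGFP libraries, so it had to be lower against eGFP. It had 5, 1 and 4 reads in NFAT5 libraries, 10.1, 6 and 7 reads in CA-RIT NFAT1 libraries and 41 and 11 reads in eGFP 3 and 6. Against Trav12-3 that is 0.0883, 0.0210 and 0.0721 per 1000 reads in NFAT5 libraries, 0.0972, 0.0853 and 0.131 in CA-RIT NFAT1 libraries and 0.285 and 0.251 in eGFP libraries. Its place below eGFP therefore counts as no result, and its test is not given.

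The beta chain had a plainer picture. No other beta V segment shares a stretch of 31 bases with Trbv5, and 8 of them held 943 reads over the 8 libraries. Trbv13-1 had 850 of these, at 77 to 145 reads in every library, although its coding part is 51.9% identical to that of Trbv5. It was at 4.68, 4.10 and 3.41 CPM in NFAT5 libraries, 4.17, 3.63 and 5.14 CPM in CA-RIT NFAT1 libraries and 2.63 and 4.41 CPM in eGFP 3 and 6. The groups overlapped, with eGFP 3 lowest, and the log2 fold change was 0.11 ± 0.61 in NFAT5 against eGFP. Trbv13-2 followed with 0 to 13 reads a library.

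Traces of other rearrangements were few. Alpha V reads outside the Trav12 family numbered 19, 8 and 9 in NFAT5 libraries, 15, 31 and 31.7 in CA-RIT NFAT1 2, 4 and 9 and 0 and 17 in eGFP 3 and 6, at most 0.0583% of alpha V reads. CA-RIT NFAT1 9 alone had reads on Trav2 (16), on the pseudogenes Trbv7 (11), Trbv10 (7) and Trav13-3 (6.7) and on Trbv31 (10). Trbv1 had 7 reads there and 3 in CA-RIT NFAT1 2, and Trav18 had 6 in CA-RIT NFAT1 2 alone. Whether these are RNA of single clones or stray reads was not tested.

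Of reads on the beta constant genes, Trbc1 held 1.87% ± 0.061 in NFAT5, 1.79% ± 0.26 in CA-RIT NFAT1 and 1.64% ± 0.11 in eGFP libraries (SD, exact permutation p = 0.396, adjusted p = 0.694). For every 100 Trac reads there were 44.8 ± 1.1 alpha V reads in NFAT5, 45.3 ± 1.5 in CA-RIT NFAT1 and 45.5 ± 7.2 in eGFP libraries (exact permutation p = 0.921). The eGFP spread came from 50.6 in eGFP 3 and 40.4 in eGFP 6, the highest and the lowest of the 8. For every 100 beta constant reads there were 35.0 ± 0.79 beta V reads in NFAT5, 36.3 ± 0.70 in CA-RIT NFAT1 and 36.5 ± 0.80 in eGFP libraries (exact permutation p = 0.171, adjusted p = 0.40).

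The ratio of the chains ranged widely. There were 3.45, 2.78 and 2.89 beta constant reads per Trac read in NFAT5 1, 5 and 8. There were 2.51, 3.19 and 4.66 in CA-RIT NFAT1 2, 4 and 9, and 3.30 and 5.07 in eGFP 3 and 6. The groups overlapped, and the highest values were those of CA-RIT NFAT1 9 and eGFP 6, the libraries with least Trac. This ratio was not tested between groups.

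Delta and gamma segments encode the receptor chains of gamma delta T cells. Whether their RNA here came from such cells was not tested. Trdc (ENSMUSG00000104876, chr14:54142851-54148868), the delta constant gene, was at 78.6, 100.1 and 105.0 CPM in NFAT5 libraries, 101, 65.8 and 53.0 CPM in CA-RIT NFAT1 libraries and 94.6 and 74.3 CPM in eGFP libraries. The groups overlapped. Its log2 fold change was 0.05 ± 0.31 in NFAT5 against eGFP, -0.35 ± 0.31 in CA-RIT NFAT1 against eGFP and 0.40 ± 0.28 in NFAT5 against CA-RIT NFAT1 (edgeR, unadjusted p = 0.193 for the last). Per 1000 Trac reads Trdc had 15.5, 16.9 and 19.1 reads in NFAT5 libraries, 12.9, 11.7 and 12.9 in CA-RIT NFAT1 libraries and 11.97 and 16.6 in eGFP libraries. NFAT5 lay above CA-RIT NFAT1 without overlap there, and eGFP overlapped both. That ratio was not tested between groups, and Trac itself ran from 4114 to 7841 CPM in these CA-RIT NFAT1 libraries.

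Trdv2-2 was the leading delta V segment, with 149 to 375 reads a library. It was followed by Trdv4 with 5 to 92 and Trdv5 with 4.1 to 80.7, and Trdv2-1 had at most 4.9. Trdv5 lies on the minus strand and shares 207 bases of genome with Trdc on the plus strand, and whether the counting used strand is not given in the sources used here, so the split between them is uncertain. All delta segments together held 0.351% ± 0.061 of receptor reads in NFAT5, 0.243% ± 0.061 in CA-RIT NFAT1 and 0.229% ± 0.016 in eGFP libraries (exact permutation p = 0.107, adjusted p = 0.40). The difference, NFAT5 minus eGFP, was 0.121 percentage points in reads and 0.0227 with TPM in place of reads (exact permutation p = 0.479). In the same libraries the gamma delta marker list was at 0 to 2.18 CPM in sum.

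Gamma reads were almost absent among the members. M21 names most gamma genes Tcrg, so only Trgv2 and 4 J segments fall under the rule, and Trgv2 had 3 reads in NFAT5 8, 1 in CA-RIT NFAT1 2, 3 in eGFP 6 and 0 in the rest of the 8. Genes named Tcrg, which are not members, summed to 14.3 to 64.6 CPM in the 8 libraries, led in reads by the constant gene Tcrg-C4. The gamma share of receptor reads gave an exact permutation p = 0.893 over groups (smallest p 0.0357, since most libraries are tied at 0).

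**Figure D4:**
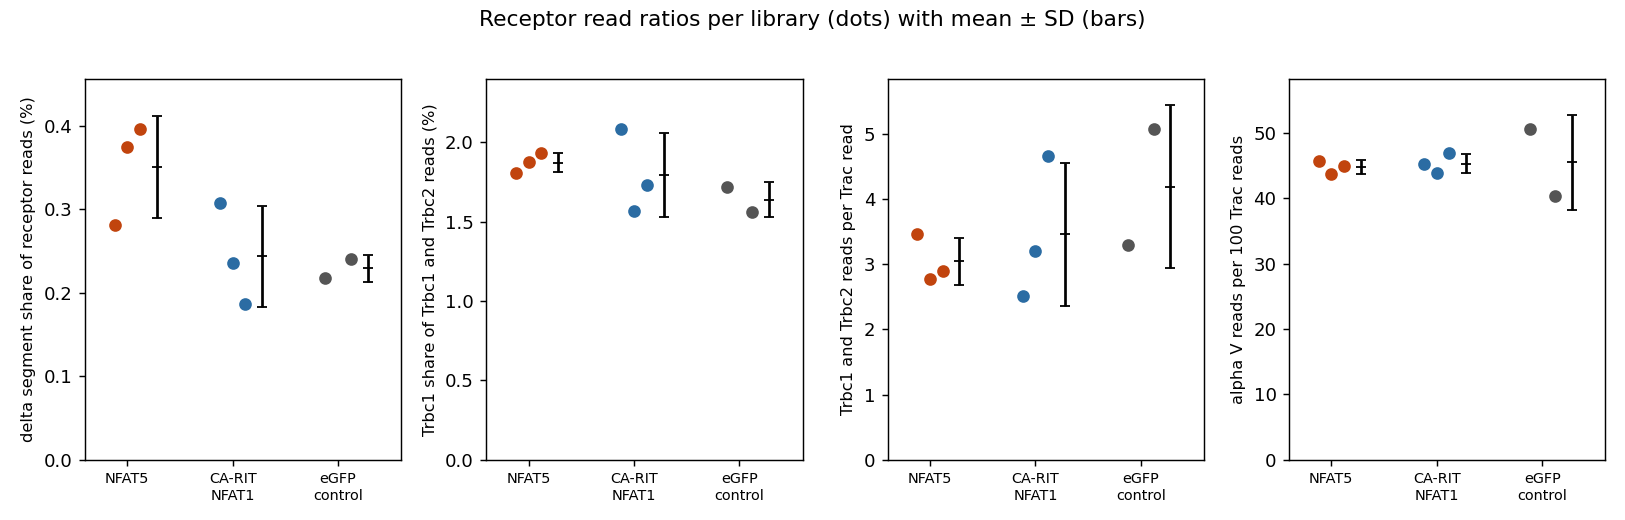
Per library (dots) and as mean ± SD (bars) for NFAT5, CA-RIT NFAT1 and eGFP control, the panels show the delta share of receptor reads (%), the Trbc1 share of beta constant reads (%), beta constant reads per Trac read, and alpha V reads per 100 Trac reads. No measure separates all 3 groups, and the eGFP pair spans 40.4 to 50.6 alpha V reads per 100 Trac reads.

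Genes that work with the receptor were read from lists written from general knowledge. Of 7 invariant chain and coreceptor genes 6 were tested, and 0 passed the adjusted threshold in any comparison (edgeR). At an unadjusted p below 0.05, 3 of 6 were lower in NFAT5 against eGFP, beside 4.01% of all genes, and 4 of 6 in CA-RIT NFAT1 against eGFP, beside 3.16%. The list medians were -0.52 and -0.54, beside 0.08 and 0.10 for all genes. In NFAT5 against eGFP, Cd3g had a log2 fold change of -1.06 ± 0.28 and Cd3d -1.02 ± 0.29, both signalling chains bound to the receptor. Cd247, the zeta chain, had -0.53 ± 0.18, Cd3e -0.03 ± 0.25, and the coreceptor genes Cd8a and Cd8b1 -0.51 ± 0.25 and -0.14 ± 0.28. Cd3d was at 542, 501 and 501 CPM in NFAT5 libraries, 734, 540 and 533 CPM in CA-RIT NFAT1 libraries and 1229 and 681 CPM in eGFP libraries. Its groups in NFAT5 and eGFP did not overlap, with eGFP 3 far above eGFP 6.

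Of 12 genes of the rearrangement machinery 10 were tested and 0 passed. Rag1, a subunit of the recombinase that cuts receptor DNA, was at 0 to 0.364 CPM and Rag2, its partner, at 0 reads in all 8 libraries. Dntt, which adds bases at the joints, was at 0 to 1.23 CPM. Lig4, the ligase that closes them, was at 2.98, 3.36 and 0.306 CPM in NFAT5 libraries, 1.35, 3.73 and 2.48 CPM in CA-RIT NFAT1 libraries and 0 in both eGFP libraries. Lig4 passed the low-count filter only through the NFAT5 and CA-RIT NFAT1 libraries, so it had to differ from eGFP and its test is not given.

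CA-RIT NFAT1 10 had another receptor make-up. Its 2056 receptor reads were 0.00633% of the library. Trbc2 had 1339, Trac 109, Trbc1 0 of 1339 beta constant reads, which allows a share of up to 0.224%, and Trdc 0, where 3 counts equal 0.0923 CPM. Trbv5 kept 248 of 258 beta V reads (96.1%, 95% Wilson interval 93.0% to 97.9%), with the other 10 on Trbv13-2. Of 178 alpha V reads Trav12-3 held 62, a share of 34.8% (28.2% to 42.1%). Trav14d-3-dv8 held 71, Trav13d-4 33.4, Trav13-4-dv7 9.4 and Trav13d-1 2.1.

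Trdv4 had 172 reads in CA-RIT NFAT1 10 (5.29 CPM), against 0.137 to 3.10 CPM in the 8 libraries, beside a Trdc of 0. Alpha V reads exceeded those of the constant gene, at 163 per 100 Trac reads, whereas beta V reads were 19.3 per 100 beta constant reads, and there were 12.3 beta constant reads per Trac read. Trav14d-3-dv8 and Trav13-4-dv7, whose symbols also carry a delta V name (dv), were counted as alpha V only. The alpha V ratio and shares of this library depend on that choice. The library also held 466 CPM of Tcrg genes, led by Tcrg-C1 with 9290 reads, and 955 reads of Dntt. Its macrophage markers summed to 3951 CPM and its mast cell and P511 markers to 4047 CPM, and their part in these receptor reads was not tested. eGFP 7 had 21 receptor reads, 12 on Trbc2, 4 on Trac, 3 on Trbv5 and 2 on Trav12-3. Intervals and floors cover counting error only.

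**Figure D5:**
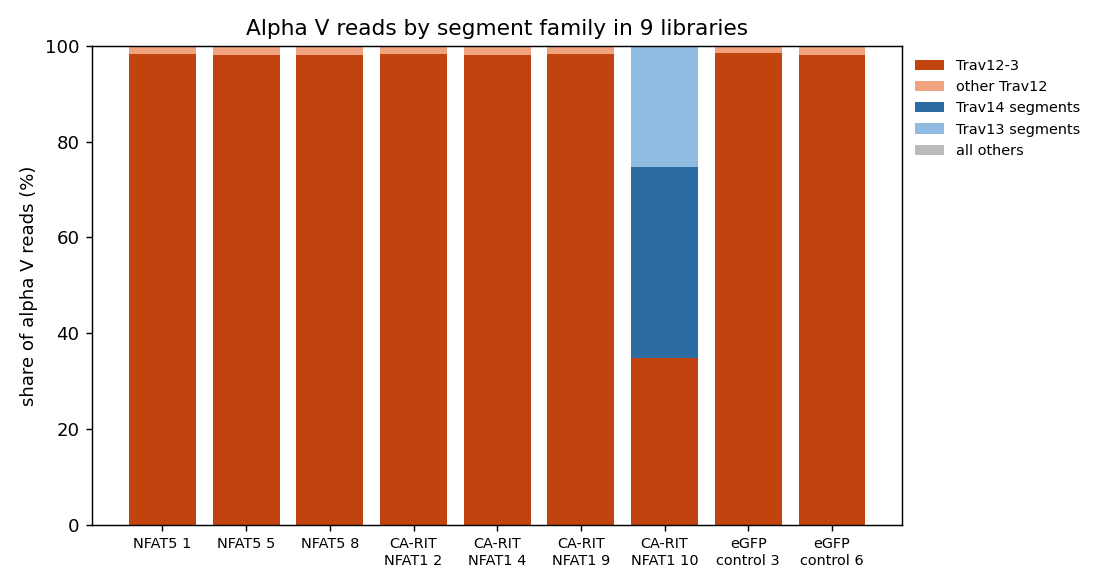
Stacked bars give the share of alpha V reads (%) on Trav12-3, other Trav12 segments, Trav14 segments, Trav13 segments and all others in 9 libraries, without eGFP 7, which had 2 such reads. Trav12-3 takes over 98% in 8 libraries and 34.8% in CA-RIT NFAT1 10, where Trav14 segments take 39.9% and Trav13 segments 25.2%.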

How the data were processed

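Per the file headers, the deposited tables hold a row for each transcript with its TPM and estimated reads. These deposited estimated counts came from Salmon 0.14.1, per the submitters' processing notes, which name the builds mm10 and GRCm38.p6. The sources used here do not state strandedness or trimming. Of 140919 transcripts 139966 matched GENCODE M21, a release inferred from 99.9% equal lengths, and estimated counts were summed per gene and rounded for tests. CPM scale by the reads on matched genes. The authors' deposited TPM values, summed per gene, serve for levels between genes.

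Members and gene lists were chosen with earlier results of these data known. The gene test was edgeR 4.0.16 under R 4.3.3 (quasi-likelihood, TMM, default low-count filter, Benjamini-Hochberg over all genes, threshold 0.05) in a single fit of 8 libraries, without eGFP 7 and CA-RIT NFAT1 10. Its biological coefficient of variation was 0.725. Standard errors are those implied by fold change and test. Scripts were tested on simulated data, for edgeR with less variation than in these data, which checks the code and not its power here. Shares were tested by an exact two-sided permutation of the 3 group labels, adjusted over 7 shares. A pair of planned shares, of leading J segments, had no reads and gave no value. Alternatives were DESeq2 1.42.0, limma 3.58.1 voom, other scalings, filters and libraries. Identity is over aligned coding bases, with 31-base stretches compared on whole transcripts. Named segments are all constant genes with reads, the 5 highest per locus and class, those past the filter, the 3 highest per locus in the left-out libraries, and the list genes. Others named were chosen after their values were seen.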

Additional observations from a re-analysis of the deposited data

Results flagged for a closer look

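The first set of results concerns the 4 CA-RIT NFAT1 libraries. In 9 of 26 measures examined, 1 value lay far from the other 3. A chance rate of about 1 in 20 cannot be set against this count, because the measures share reads. In 8 of these the distant library was CA-RIT NFAT1 10. That library was left out of the tests for its low T cell RNA, so these flags restate that choice. Trbc2 was at 41.2 CPM and Trbv5 at 7.63 CPM there, and receptor reads were 0.00633% of the library. Trav12-3 held 34.8% of alpha V reads and Trbv5 96.1% of beta V reads. Alpha V reads were 163 per 100 Trac reads, beta V reads 19.3 per 100 beta constant reads, and delta segments 8.37% of receptor reads. The ninth was a gamma share of 8.78e-05% in CA-RIT NFAT1 2, which is 1 read against 0 in the others.

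The second set is reads in CA-RIT NFAT1 10, a library outside the tests, that exceed the level of eGFP 3 and 6. These are Trdv4 at 5.29 CPM, Trav14d-3-dv8 at 2.19 CPM, Trav13d-4 at 1.03 CPM, Trbv13-2 at 0.308 CPM and Trav13-4-dv7 at 0.291 CPM. The mast cell and P511 markers of that library summed to 4047 CPM and its macrophage markers to 3951 CPM, and their part in these values was not tested.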

How the results depend on the processing

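Of 544 alternatives computed 507 kept direction and side of the threshold. Genes called moved from 0 to 131 (NFAT5 against eGFP), 100 (CA-RIT NFAT1 set against eGFP) and 4 (NFAT5 against CA-RIT NFAT1) with DESeq2. Leaving out 1 library gave 0 to 3294, 0 to 3410 and 0 genes, and 0 to 2, 0 to 2 and 0 members, the highest without eGFP 6. With all 10 libraries log2 fold changes turned to 0.22 for Trac and 0.11 for Trav12-3 in NFAT5 against eGFP. In NFAT5 against CA-RIT NFAT1 they turned to 0.35 for Trac, 0.30 for Trbc1, 0.24 for Trbc2, 0.34 for Trav12-3, 0.35 for Trav12-2 and 0.19 for Trbv5, and limma voom gave 0.018 for Trac and 0.0048 for Trav12-3. The cause was not tested.

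With 1 library left out, fold changes in NFAT5 against eGFP ran from -0.69 to 0.27 for Trac, -0.87 to 0.42 for Trav12-3, -0.77 to 0.48 for Trav12-2 and -0.16 to 0.33 for Trdc. In CA-RIT NFAT1 against eGFP they ran from -0.62 to 0.34 for Trac, -0.78 to 0.50 for Trav12-3 and -0.70 to 0.55 for Trav12-2. In NFAT5 against CA-RIT NFAT1 they ran from -0.26 to 0.17 for Trac, -0.22 to 0.011 for Trbc1, -0.26 to 0.15 for Trav12-3 and -0.28 to 0.14 for Trav12-2. Trbv5 and Trbc2 kept their sign in each of these. The group difference, given as eGFP minus NFAT5, ran from -0.070 to 0.22 percentage points for the Trav12-3 share and from -4.39 to 5.83 for alpha V reads per 100 Trac reads. The gamma share, as eGFP minus CA-RIT NFAT1, ran from -2.9e-05 to 3.0e-04.

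None of 85 share alternatives had an adjusted p below 0.05 (lowest 0.2), and 1 had an unadjusted one, the Trbv5 share without CA-RIT NFAT1 9 (exact permutation p = 0.0286). The planned fit of 7 libraries equals that without eGFP 3. No paired analysis was possible because the groups share no replicate numbers. Depth limits the minor segments, where 3 counts equal 0.0821 to 0.160 CPM in the 8 libraries.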
